A study of Sus scrofa with 8 samples.

Results

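Uncoupling proteins 2 and 3 (UCP2, UCP3), the coactivator PGC-1α (PPARGC1A) and the nuclear receptors PPARα (PPARA) and PPARδ (PPARD) were examined in pig backfat, the subcutaneous fat of the back. All probe sets annotated with exactly 1 gene symbol and that symbol among these 5 genes were taken, which gave 5 of 6765 named genes and 9 of the 23999 probe sets that are not controls: 1 for UCP2, 2 for UCP3, 1 for PPARGC1A, 2 for PPARA and 3 for PPARD. UCP1 and the related coactivator PPARGC1B each had 0 probe sets under a single symbol and were not analysed here.

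The study set KNP pigs aged 7 months against YS pigs aged 6 months, with 4 backfat samples per breed on 1 Affymetrix GeneChip Porcine Genome Array each. Both breeds were raised alike, no treatment was given in the labels, and 1 label spells YS as Yorkshire; KNP is not spelled out. All KNP samples were 1 month older, so breed and age cannot be told apart, and sex was not stated. Whether each sample is a separate animal is not stated, so SDs and p-values describe the spread among the 4 samples of a breed, which may be technical.

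Uncoupling proteins are carriers of the inner mitochondrial membrane. UCP1 lets protons leak back into the matrix of brown fat mitochondria and so turns fuel into heat, but in pigs this gene is disrupted, and pigs lack classical brown fat. UCP3 is best known from skeletal muscle and UCP2 from many tissues, immune cells included, and neither is held to be a heat producer of the UCP1 kind. PPARα and PPARδ bind fatty acids, pair with retinoid X receptors and switch on genes of fatty acid oxidation, and PGC-1α is the coactivator that drives mitochondrial and oxidative genes through them and through other receptors. In RefSeq (pig assembly Sscrofa11.1), UCP2 and UCP3 lie on the same chromosome with 1 annotated gene, a long non-coding RNA, between their starts.

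The arrays carry no counts, and the number of arrays limits the precision. Signals are the deposited intensities on a linear scale, and the trimmed mean was the same on every array, at about 500.1. Background was judged, array by array, from 23 controls for sequences that pig RNA does not hold, and their 95th percentile is called the no-target level. It ran from 40.6 on YS replicate 2 to 161 on YS replicate 4, and 45.1% of all probe sets lay above it on all 8 arrays, 7.87% on none. Of 12 measured adipocyte markers, 11 lay above it on all 8 arrays, and the exception was CEBPA on YS replicate 4. A probe set below this level has no reading that can be told from background, and the sensitivity of each probe set is unknown, so such a value does not show that the transcript is absent.

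**Figure D1:**
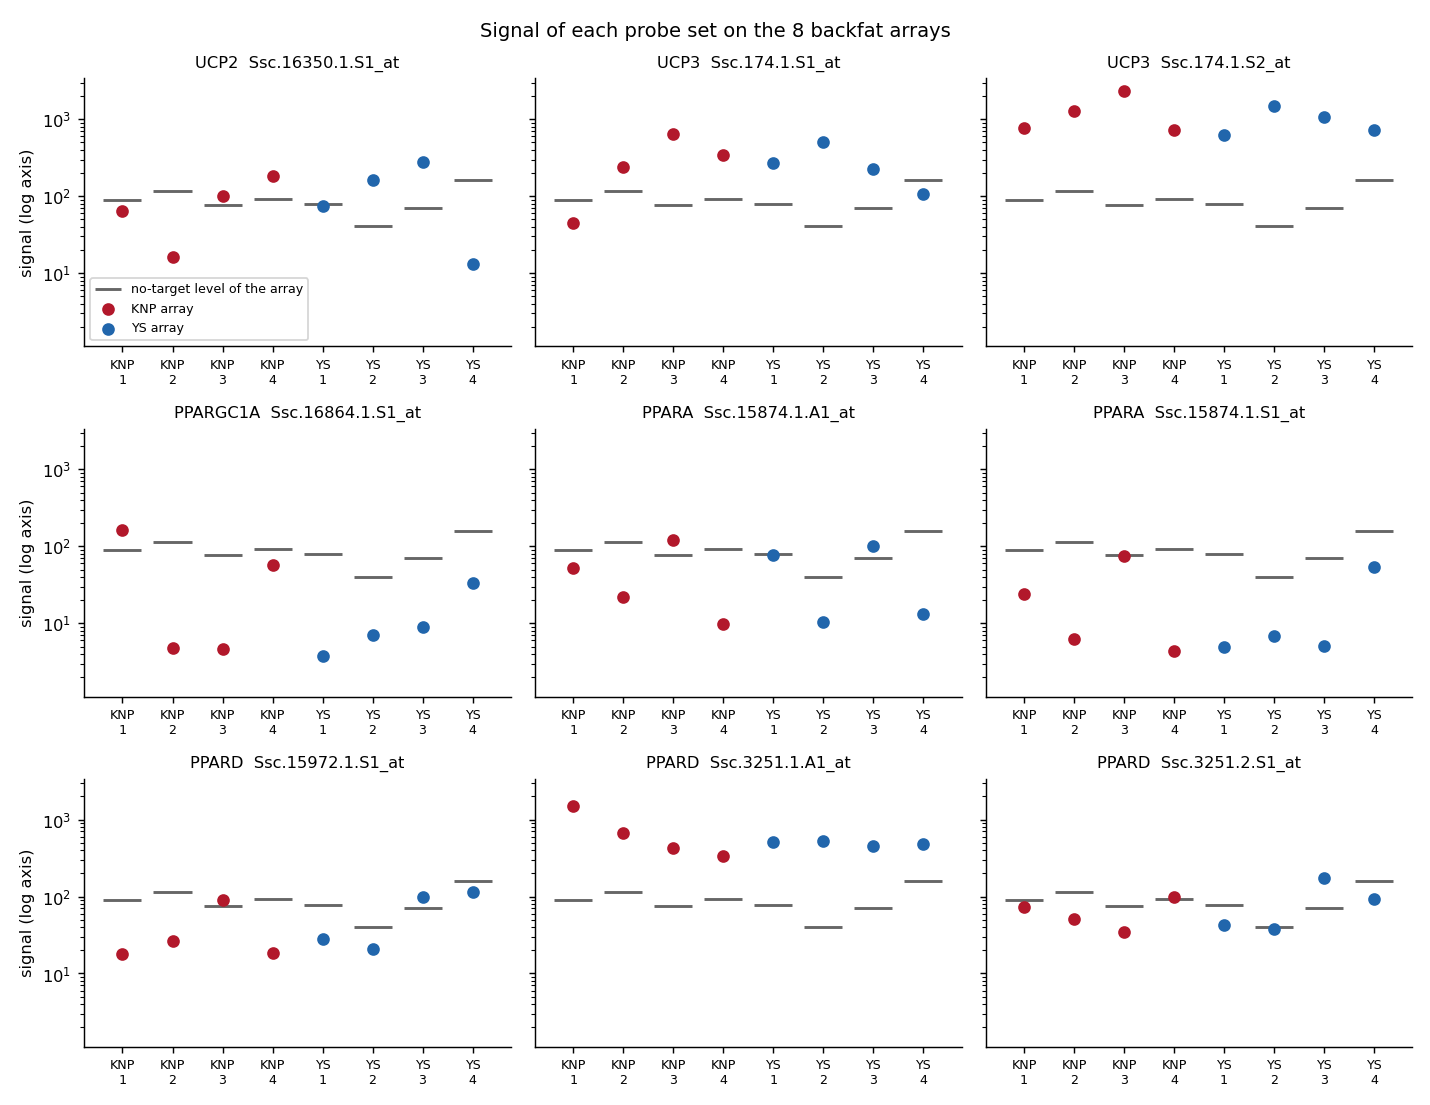
Each panel shows 1 probe set, with its signal on a log axis for the 4 KNP arrays (red) and the 4 YS arrays (blue). The grey line is the no-target level of that array. One probe set of UCP3 (upper right) and one of PPARD (lower middle) lie above it on all 8 arrays, and the probe sets of PPARGC1A and PPARA lie below it on most.

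In these backfat samples 1 UCP3 probe set gave signal above the no-target level on all 8 arrays and the other on 6. PPARD gave such signal on all 8 arrays at 1 of 3 probe sets and UCP2 on 4 arrays, and PPARGC1A and PPARA stayed near background. No probe set that could be tested differed detectably between the breeds. Of the 9 probe sets, 5 passed the filter on low values and were tested with limma, and 0 of 5 passed an adjusted p of 0.05, at a background of 0% of the 17999 probe sets tested. At an unadjusted p under 0.05 the count was again 0 of 5, at a background of 2.84% (1.49% higher and 1.35% lower in KNP). KNP and YS values overlapped for all 9 probe sets, and for all but 1.96% of the probe sets tested. The 5 tested probe sets each had an adjusted p of 0.9998 in limma, and the smallest adjusted p of all 17999 was 0.762.

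UCP3 was read by 2 probe sets, both assigned to the same RefSeq transcript. The brighter one (Ssc.174.1.S2_at) had signals of 772, 1268, 2358 and 716 on KNP replicates 1 to 4. On YS replicates 1 to 4 it stood at 619, 1471, 1069 and 724. KNP replicate 3 was the highest of all and YS replicate 1 the lowest, the ranges of the breeds overlapped widely, and every array was above its no-target level. On the log2(signal + 16) scale the mean level was 10.17 ± 0.78 (SD, n = 4) over the KNP arrays and 9.87 ± 0.55 over the YS arrays. The difference of 0.30 ± 0.44 (SE) amounts to 1.23-fold in favour of KNP, and its 95% interval runs from 0.622-fold to 2.45-fold. A difference of more than 2.45-fold thus lay outside the interval, and a 2-fold one in favour of KNP did not. Without KNP replicate 3 the difference was -0.043, so that sample set its direction.

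The dimmer UCP3 probe set (Ssc.174.1.S1_at) gave 44.7, 239.7, 646 and 339 in KNP. It gave 268, 502, 229 and 108 in YS. KNP replicate 3 and YS replicate 2 were again the highest, while KNP replicate 1 and YS replicate 4 fell below their no-target levels, leaving 6 arrays above. The mean log2 level was 7.94 ± 1.46 (SD, n = 4) over the KNP arrays and 8.02 ± 0.85 over the YS arrays, and the difference was -0.07 ± 0.71 (SE), from 0.311-fold to 2.90-fold. Its direction turned without KNP replicate 1, to 0.60, and without YS replicate 2, to 0.26.

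KNP replicate 3 and YS replicate 2 were the highest at both probe sets, and the order of the other arrays differed. KNP replicate 4 was the third highest at the dimmer and the second lowest at the brighter one, and YS replicate 1 came next at the dimmer and was lowest at the brighter one. Over the 8 arrays Pearson's r between them was 0.63 (exact permutation p = 0.0961, adjusted p = 0.480 over the 5 pairs of probe sets of 1 gene) and Spearman's rho 0.40 (exact permutation p = 0.327, adjusted p = 0.728). Without KNP replicates 1 and 3, the arrays farthest from the median of the dimmer probe set, r was 0.45. The likeness of the probe sets therefore did not pass the test. KNP replicate 1 was also the array with the largest difference between the 3' and 5' ends of the housekeeping controls actin, GAPDH and elongation factor 1-alpha, at 8.54 on the log2 scale. KNP replicate 2 stood at 5.88 and YS replicate 4 at 4.40, and the other 5 arrays lay between 2.12 and 3.17. On the other 5 arrays the breed difference was 0.55 at the dimmer and 0.39 at the brighter probe set. With the 3'/5' difference in the model it was 0.55 and 0.43, and neither passed.

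UCP3 is a gene of skeletal muscle, and 1 sample carried strong muscle signal. Of the 30 markers listed for skeletal muscle, 21 were measured, and their summed signal was 104249 on KNP replicate 2, against 9033 to 30348 on the other KNP arrays and 13816 to 16741 on the YS arrays. No value was exactly 0: 3 of 21 were above the no-target level on all 8 arrays, and the fast myosin heavy chain MYH2 was above it on KNP replicate 2 only, at 9596 against at most 113 on the other arrays. The carbonic anhydrase CA3, which fat cells also make, held 16.2% of the sum on KNP replicate 2 and 85.1% to 94.2% on the other arrays. Without CA3 the sum was 87330 on KNP replicate 2 and 828 to 2538 elsewhere, with KNP replicate 4 the lowest. The brighter UCP3 probe set stood at 1268 on KNP replicate 2, behind KNP replicate 3 and YS replicate 2. Without KNP replicate 2 the breed difference was 0.25 at the brighter and -0.09 at the dimmer probe set. The part of muscle in the UCP3 signal was not tested. In whole tissue, fewer cells of a type and less RNA per cell cannot be told apart.

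**Figure D2:**
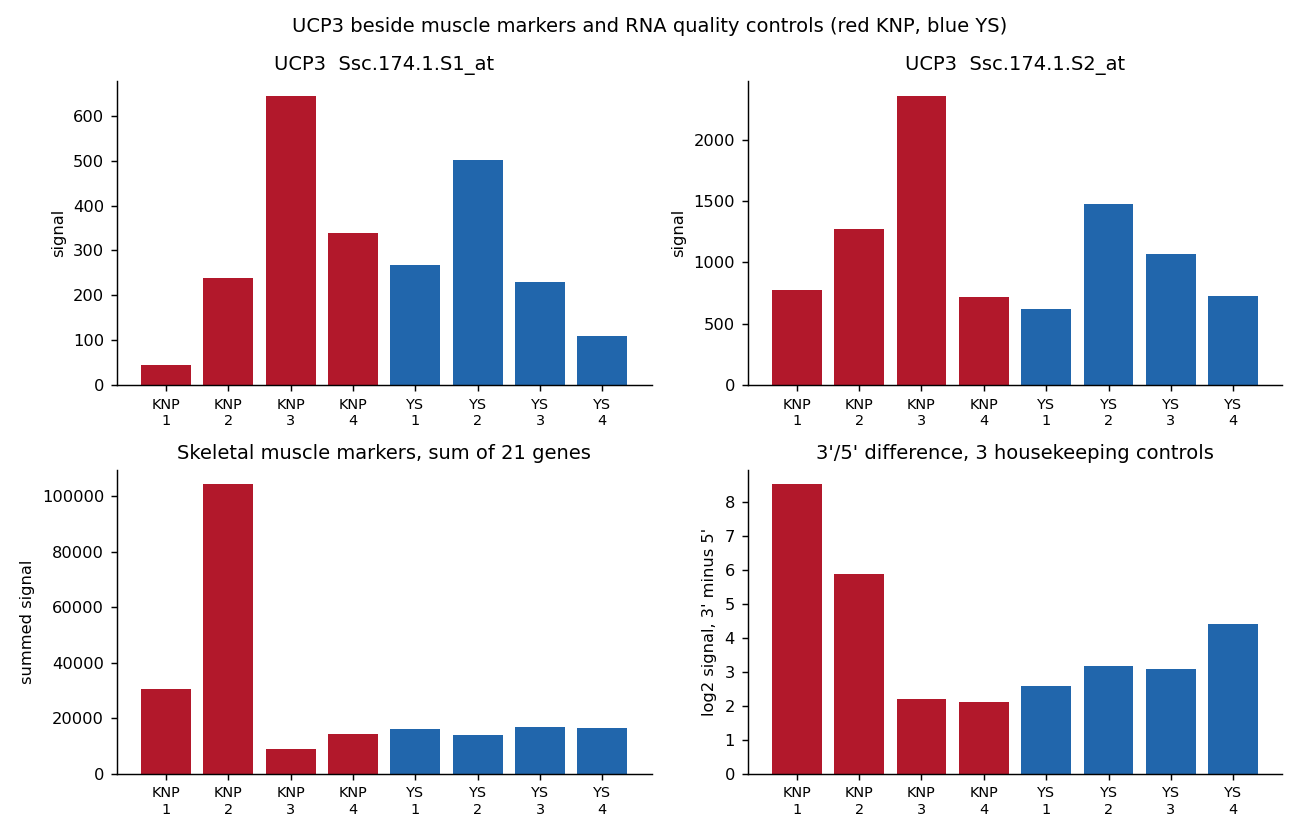
The upper panels give the signal of both UCP3 probe sets on each array (KNP red, YS blue), the lower left panel the summed signal of 21 skeletal muscle markers, and the lower right panel the log2 difference between 3' and 5' probe sets of 3 housekeeping controls. KNP replicate 2 holds the highest muscle sum (104249), mostly from genes other than CA3, and KNP replicate 3 the highest UCP3 signal at both probe sets (646 and 2358).

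UCP2 was read by 1 probe set (Ssc.16350.1.S1_at), with signals of 64.5, 16.1, 102 and 181 in KNP and 73.9, 163, 281 and 13.4 in YS. KNP replicates 3 and 4 and YS replicates 2 and 3 lay above the no-target level, 2 of 4 in each breed, and the highest and the lowest value were both YS. The mean log2 level was 6.46 ± 1.10 (SD, n = 4) over the KNP arrays and 6.77 ± 1.44 over the YS arrays. The difference of -0.31 ± 0.76 (SE) had an interval from 0.245-fold to 2.67-fold, the widest of the tested members. The within-breed SD of 1.29 compares with a median of 0.54 over all probe sets tested. The difference turned to 0.18 without KNP replicate 2, to 0.18 without YS replicate 3 and to 0.072 with the 3'/5' difference in the model. The lowest arrays, KNP replicate 2 and YS replicate 4, were among the 3 with the largest 3'/5' difference, and the part of this in the UCP2 values was not tested further. Macrophage and myeloid markers, which mark a cell type known to hold UCP2, had summed signals from 9263 to 19157 in KNP and from 9966 to 22038 in YS over 11 genes. Their sum was highest on YS replicate 3, the array with the highest UCP2 signal, and lowest on KNP replicate 2. KNP replicate 4 was second highest in both, with a sum of 19157 and a UCP2 signal of 181. KNP replicate 1 had the third highest sum, 17172, with UCP2 below the no-target level, and YS replicate 4, the lowest in UCP2, had a sum of 12105. The protease cathepsin S (CTSS) alone gave 11012.5 of the sum on KNP replicate 1 and 11223.7 on KNP replicate 4. It gave 3451 to 7395 on the other arrays. The order of the arrays in these sums thus leaned on 1 gene, and the sum without CTSS was not examined. The part of these cells in the UCP2 signal was not tested.

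PPARD, the PPAR with the widest tissue range, was read by 3 probe sets that did not move together. Only the bright one (Ssc.3251.1.A1_at), assigned to an expressed sequence tag, was above the no-target level on all 8 arrays. Its signals were 1508, 665, 429.9 and 339 in KNP and 512, 533, 452 and 477 in YS. The YS samples were within a narrow band inside the KNP range, and KNP replicate 1 stood far above the other 7. The mean log2 level was 9.31 ± 0.93 (SD, n = 4) over the KNP arrays and 8.99 ± 0.10 over the YS arrays, a difference of 0.32 ± 0.43 (SE) with an interval from 0.640-fold to 2.45-fold. Without KNP replicate 1 the difference was -0.10, and without the 3 arrays that stood highest in 3'/5' difference it was -0.37 (adjusted p = 0.719, limma), so the higher KNP mean rested on that sample.

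The other PPARD probe sets were near background. The one assigned to another expressed sequence tag (Ssc.3251.2.S1_at) had 72.8, 51.7, 34.8 and 97.4 in KNP and 42.8, 37.6, 173 and 91.7 in YS, above the no-target level on KNP replicate 4 and YS replicate 3. It passed the filter and was tested, but with 1 array per breed above background no fold is given. The one assigned to the RefSeq transcript (Ssc.15972.1.S1_at) had 17.8, 26.3, 91.4 and 18.4 in KNP and 27.6, 20.6, 98.2 and 113 in YS. It lay above the level on KNP replicate 3 and YS replicate 3 and did not pass the filter. For the transcript probe set against the bright one, the transcript one against the other tag, and the bright one against the other tag, Pearson's r over 8 arrays was -0.39, 0.33 and -0.11, with exact permutation p = 0.398, 0.431 and 0.810, and adjusted p = 0.702, 0.702 and 0.810. Spearman's rho was -0.38, 0.10 and -0.24, with exact permutation p = 0.360, 0.840 and 0.582, and adjusted p = 0.728, 0.840 and 0.728. Without the 2 arrays farthest from the median of the probe set named first in each pair, r was -0.33, -0.60 and -0.28. These were YS replicates 3 and 4 for the transcript probe set and KNP replicates 1 and 4 for the bright one. In each of these pairs at most 2 arrays had both probe sets above the no-target level.

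PPARGC1A (probe set Ssc.16864.1.S1_at) was above the no-target level on 1 array of 8. Its signals were 161, 4.83, 4.62 and 57.2 in KNP and 3.79, 7.14, 9.08 and 33.8 in YS. Only KNP replicate 1 stood above its level of 89.5, and it was also the array of the largest 3'/5' difference. The mean log2 level was 5.60 ± 1.51 (SD, n = 4) over the KNP arrays and 4.78 ± 0.59 over the YS arrays. The probe set did not pass the filter, and no fold is given because no YS array was above background. In the fit with no filter its unadjusted p was 0.268 in limma.

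PPARA had 2 probe sets assigned to the same messenger RNA. The first (Ssc.15874.1.A1_at) gave 51.9, 21.9, 121 and 9.89 in KNP and 78.2, 10.5, 102 and 13.2 in YS, above the no-target level on KNP replicate 3 and YS replicate 3. The second (Ssc.15874.1.S1_at) gave 24.2, 6.29, 73.9 and 4.42 in KNP and 4.99, 6.83, 5.09 and 54.0 in YS, above it on 0 arrays. Neither passed the filter, and r between them was 0.23 (exact permutation p = 0.562, adjusted p = 0.702) with rho 0.31 (exact permutation p = 0.462, adjusted p = 0.728). Without KNP replicate 3 and YS replicate 3, r was -0.09. The mean log2 levels at the first were 5.78 ± 1.05 (SD, n = 4) over the KNP arrays and 5.76 ± 1.12 over the YS arrays, and the breeds could not be compared for PPARA at these signals.

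**Figure D3:**
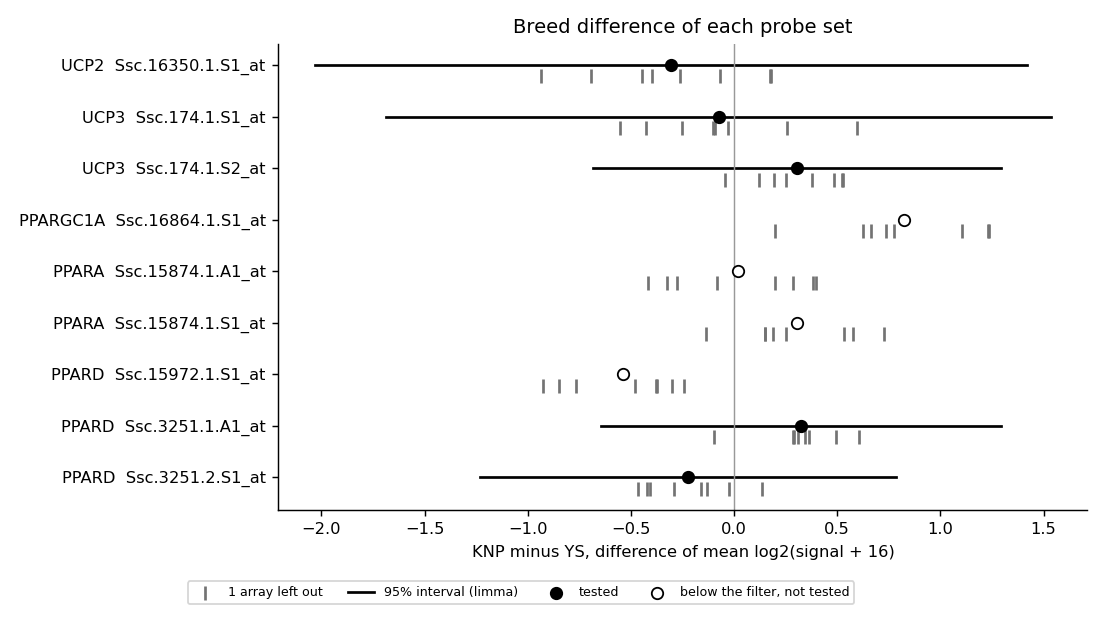
Points give the difference KNP minus YS of mean log2(signal + 16) for each of the 9 probe sets, filled where tested. Lines are the 95% intervals from limma for the 5 tested, and grey ticks the difference with 1 array left out. Every interval includes 0, and the ticks of all 5 tested probe sets fall on both sides of 0.

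The genes around these regulators were described by lists of related genes, each gene by its brightest probe set, and some genes stand in more than 1 list. Of 36 partner receptors, co-regulators and mitochondrial regulators listed, 18 were measured and 17 tested: 11 were higher and 6 lower in KNP, with a median difference of 0.04, against a median of -0.0010 over all probe sets tested. None passed, and 0 had an unadjusted p under 0.05. Of all 18, 16 were above the no-target level on all 8 arrays. The deacetylase SIRT3, which acts on mitochondrial enzymes, was at 9.34 ± 0.16 (SD, n = 4) over the KNP arrays and 8.96 ± 0.38 over the YS arrays. PPARγ (PPARG), the PPAR that governs fat cell formation, was at 11.51 ± 0.65 against 11.78 ± 0.33, and PPRC1, a relative of PGC-1α, at 7.97 ± 0.66 against 7.69 ± 0.48. PPARG was above the no-target level on all 8 arrays, from 1854 to 4627 in signal, as was the bright PPARD probe set. Signals of different probe sets cannot be set against each other as amounts.

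PPAR target genes of fatty acid oxidation and handling showed no common shift. Of 37 listed, 25 were measured and all of these tested, 12 higher and 13 lower in KNP with a median of -0.01, and 23 were above the no-target level on all arrays. None passed. At an unadjusted p under 0.05, 1 gene was higher and 1 lower in KNP, 2 of 25, where 2.84% of all probe sets tested were called (1.49% higher and 1.35% lower). These were carnitine acetyltransferase (CRAT), at 10.56 ± 0.46 against 9.83 ± 0.34, and the dienoyl-CoA reductase DECR1, at 9.55 ± 0.26 against 10.56 ± 0.20 (SD, n = 4, limma adjusted p of 0.9998 and 0.9998). ACAA1, a peroxisomal thiolase, was next at 13.59 ± 0.52 against 12.94 ± 0.73. The muscle form of carnitine palmitoyltransferase, CPT1B, lay above the no-target level on 3 arrays and the form CPT1A, found in liver and many other tissues, on all 8.

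Genes known from brown and beige fat or from heat production without UCP1 were split 8 higher and 9 lower among 17 tested, of 21 measured and 39 listed, with a median of -0.0008. None passed and 0 had an unadjusted p under 0.05. The first by p were CITED1, a transcription cofactor used as a beige marker, at 10.08 ± 0.40 (SD, n = 4) over the KNP arrays and 9.59 ± 0.25 over the YS arrays, and the calcium release channels RYR1 and RYR2. RYR1, the skeletal muscle form, was at 6.98 ± 2.04 against 5.48 ± 0.93. Only KNP replicates 1 and 2 and YS replicate 3 exceeded background for it. Its YS mean lay under the filter limit of 6.13, so RYR1 was tested, and counted as higher, through its KNP values. These means therefore give no size for a breed difference in RYR1. Its highest signal, 619.9, was on KNP replicate 2. Sarcolipin (SLN), which uncouples the calcium pump in muscle, was also highest there, at 3007 against at most 238 elsewhere, and KNP replicate 2 is the sample with the high muscle markers. RYR2 was at 7.33 ± 0.51 against 6.76 ± 0.55. The lipid droplet protein CIDEA, a brown fat marker in mice, was bright in both breeds, from 1179 to 10008 in KNP and from 2692 to 6160 in YS. The deiodinase DIO2 was above the no-target level on 1 array per breed, and the β3-adrenergic receptor ADRB3 on 3 KNP and 4 YS arrays. The list's median moved to 0.37 without KNP replicate 4 and to -0.17 without KNP replicate 1, so its sign depended on single samples, and it was -0.23 on the 5 arrays of smaller 3'/5' difference.

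UCP2 and UCP3 belong to the mitochondrial carrier family, of which 21 other members were measured and tested, of 40 listed. Of these 8 were higher and 13 lower in KNP, with a median of -0.04, and 17 were above the no-target level on all arrays. None passed and 0 had an unadjusted p under 0.05. The adenine nucleotide translocase SLC25A4, the form of heart and skeletal muscle, was at 11.54 ± 0.29 (SD, n = 4) over the KNP arrays and 10.89 ± 0.50 over the YS arrays. The ATP-magnesium/phosphate carrier SLC25A24 was at 10.01 ± 0.51 against 10.68 ± 0.31. SLC25A14, also called UCP5, was at 8.00 ± 0.40 against 7.10 ± 1.46. Its signals were 320.2, 272, 236 and 159.6 in KNP and 306, 222, 123 and 17.1 in YS, and YS replicate 4 alone fell below background. On the 5 arrays of smaller 3'/5' difference, KNP replicates 3 and 4 and YS replicates 1 to 3, 4 carriers were higher and 17 lower in KNP. Their median was -0.30 against 0.05 over all probe sets tested there, and 0 of the 21 passed. Without YS replicate 1 the split was 14 higher and 7 lower, with a median of 0.05. It was 11 and 10 without YS replicate 2 or YS replicate 3. With any KNP array or YS replicate 4 left out, more were lower than higher, so the direction depended on single samples.

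**Figure D4:**
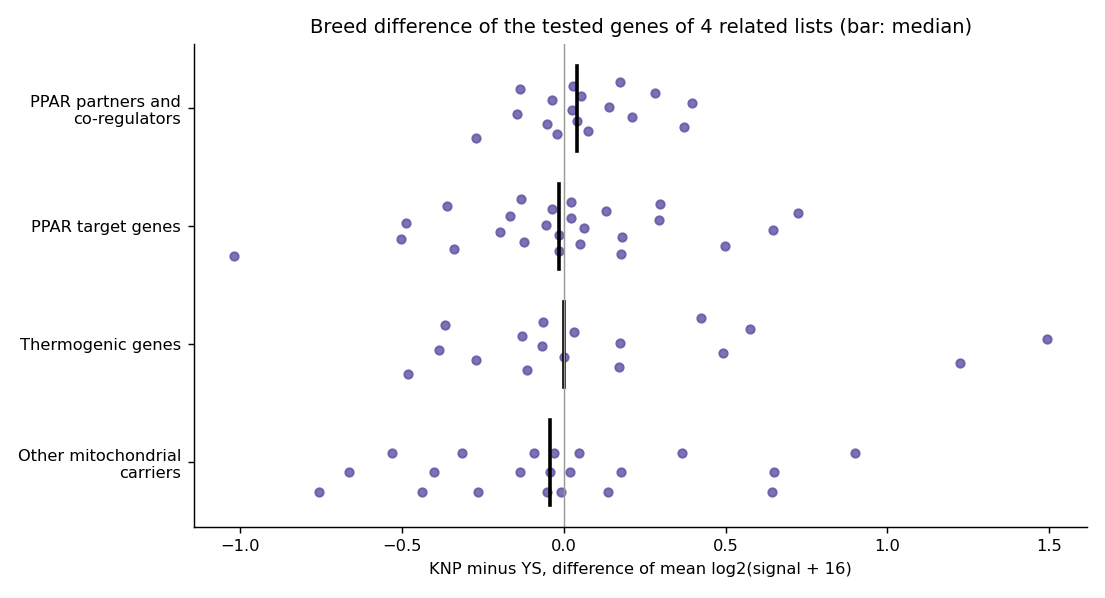
Each point is a tested gene of 4 lists, placed by its difference KNP minus YS of mean log2(signal + 16), and the bar is the list's median. The medians lie between -0.04 and 0.04, and genes fall on both sides of 0 in all 4 lists.

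For the 3 probe sets above the no-target level on at least 5 arrays, the genes with the most similar pattern over the 8 arrays were taken from 8245 candidate probe sets. These correlations are the highest of many over few arrays, which differ in their 3'/5' difference, and are given as a description. For the dimmer UCP3 probe set they were WFDC1 (Pearson's r = 0.984), RHOJ (0.968) and EBNA1BP2 (0.963). Without KNP replicate 1, farthest from the median there, these were 0.967, 0.942 and 0.929. WFDC1 and EBNA1BP2 were each above the no-target level on 6 arrays, as was this UCP3 probe set, and RHOJ on all 8. For the brighter one they were UCK1 (0.910), NDUFV3 (0.885) and SUPT6H (0.874), so the probe sets of UCP3 shared none of these 3. Without KNP replicate 3, farthest from the median there, the latter 3 fell to 0.839, 0.776 and 0.785. NDUFV3 itself was above the no-target level on 3 arrays only. For the bright PPARD probe set they were C14H12orf43 (0.985), HGH1 (0.976) and LSM3 (0.969). Without KNP replicate 1, which stood farthest from the median, these fell to 0.917, 0.895 and 0.826.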

How the data were processed

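Total RNA of 8 backfat samples was biotin labelled and hybridised to 1-colour arrays, per the labels' protocols. The deposited table holds 1 intensity per probe set and array on a linear scale for 24123 probe sets. The means, trimmed by 2% at each end, were equal, so the authors' scaling was kept; the algorithm behind the deposited intensity and its detection calls are not given in the sources used here. Values were turned into log2(signal + 16). The 124 controls and, of the rest, the 25% with the lowest mean were not tested. The test of KNP against YS was limma (version 3.58.1, R version 4.3.3, lmFit and eBayes, two-sided, Benjamini-Hochberg over 17999 probe sets), and the fit was tested on simulated data. Gene names came from the platform annotation: 10069 probe sets had 1 symbol, 9961 of them matched RefSeq by Entrez identifier, and all 9 member probe sets did.

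The members and the gene lists were chosen with earlier results of these data known. Every member probe set is described. From each list the 3 tested genes with the smallest p are named. Other genes of the lists (CPT1A, CPT1B, SLN, CIDEA, DIO2, ADRB3, CEBPA, MYH2, CA3, CTSS, SCD, FABP4) were named after their values were seen. The marker lists were given by their summed signal, and the adipocyte markers also by their median centred level. Likeness was the 3 highest Pearson's r. The array number is no pair in the labels, and same-numbered arrays did not deviate together (r from -0.19 to 0.13). Alternatives were quantile normalization, pseudocounts of 1 and 64, centring on the median, a filter of 50% or none, array weights, trend and robust fitting (statmod 1.5.0), the 3'/5' covariate, a replicate block, each array left out, an adjusted p of 0.10, and the highest no-target control as the level. Leaving out the 3 arrays of largest 3'/5' difference, the muscle markers without CA3 or without KNP replicate 2, and lists kept to genes above the no-target level on at least 5 arrays, were chosen after seeing the data.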

Additional observations from a re-analysis of the deposited data

Results flagged for a closer look

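Of 34 groups of 4 arrays examined, 1 had a sample far from the other 3, where chance alone gives about 1 in 20. At the second PPARA probe set, YS replicate 4 had a signal of 54.0 against 4.99 to 6.83 on the other YS arrays, and the gap to its nearest neighbour was 0.930 of the group's range on the log2 scale. This signal was below the array's no-target level of 161, the highest of the 8 arrays.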

How the results depend on the processing

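The count of 0 probe sets at an adjusted p of 0.05 was the same in all 20 alternatives, an adjusted p of 0.10 included, and the smallest adjusted p over them was 0.0596. No tested member passed in any. The count at an unadjusted p under 0.05 was 511. It was 877 with the 3'/5' covariate, 975 with array weights, 1492 on the 5 arrays left without KNP replicates 1 and 2 and YS replicate 4, whose 3'/5' difference was largest, and 417 to 883 with 1 array left out. Those higher in KNP were 52.4%, 35.01% with the covariate, 38.2% without KNP replicate 1 and 71.0% without YS replicate 4. The member differences turned sign as follows, with none past the threshold, and the cause was not tested. UCP2 (-0.31) was 0.072 with the 3'/5' covariate and -0.94 to 0.18 with 1 array left out. The dimmer UCP3 probe set (-0.07) was 0.55 with the covariate, 0.55 without the 3 arrays and -0.55 to 0.60 with 1 left out, and the brighter (0.30) was -0.043 to 0.53 with 1 left out. The bright PPARD probe set (0.32) was -0.046 with the covariate, -0.37 without the 3 arrays and -0.10 to 0.61 with 1 left out, and the other tested one (-0.22), below the no-target level on 6 of 8 arrays, was -0.47 to 0.14. With the replicate block the 5 tested members had the same differences (UCP2 -0.31, UCP3 -0.07 and 0.30, PPARD 0.32 and -0.22), the count at an unadjusted p under 0.05 was 509, and no call changed. With the highest no-target control as the level, the first PPARA probe set and both dim PPARD probe sets were above it on 1 array each, not 2, and UCP2 on 3, not 4. List medians ran from 0.03 to 0.16 for PPAR partners, from -0.08 to 0.06 for PPAR targets, from -0.23 to 0.37 for thermogenic genes and from -0.30 to 0.05 for other carriers. Signal over background limits the account of PPARGC1A, PPARA, UCP2 and both dim PPARD probe sets, and 4 arrays per breed limit all of it.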

Other observations

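Markers of the cell types that backfat can hold gave the following levels, as log2(signal + 16) in KNP against YS (SD, n = 4), for the 3 genes of smallest p in each list, and in limma 0 of them passed an adjusted p of 0.05 and 1, MYBPC1, had an unadjusted p under 0.05. Among 12 adipocyte markers, 6 were higher and 6 lower, and the summed signal was 139700 to 207301 in KNP and 136161 to 193343 in YS. The highest sum, on KNP replicate 1, came mostly from SCD (96882) and FABP4 (56120). With each gene's log2 level centred on its mean over the 8 arrays, the median of the 12 was -0.50 on KNP replicate 1. It was -0.58 on YS replicate 4 and 0.05 to 0.46 on the other arrays. Lipoprotein lipase (LPL) was at 13.85 ± 0.34 against 14.35 ± 0.12, the triglyceride lipase PNPLA2 at 13.66 ± 0.45 against 13.35 ± 0.42 and the acyltransferase DGAT2 at 13.68 ± 0.94 against 14.14 ± 0.60. Among 8 tested endothelial markers, 3 were higher and 5 lower, and the sum over 9 was 11741 to 22006 in KNP and 15540.2 to 16777 in YS. The adhesion protein PECAM1 was at 13.16 ± 0.25 against 12.92 ± 0.14, von Willebrand factor (VWF) at 11.51 ± 0.71 against 11.14 ± 0.56 and vascular cadherin (CDH5) at 10.85 ± 0.86 against 11.19 ± 0.15. Among 11 myeloid markers, 6 were higher and 5 lower, with a median difference of 0.17, and the 3 of smallest p were all lower in KNP. The mannose receptor MRC1 was at 9.26 ± 0.58 against 9.94 ± 0.40, the scavenger receptor CD163 at 9.85 ± 0.89 against 10.52 ± 0.40 and the complement chain C1QC at 10.47 ± 0.67 against 11.23 ± 0.91. Among 15 tested muscle markers, 14 were higher in KNP with a median difference of 1.04, where 49.9% of all probe sets tested were higher. Some of them, such as MYH2 at 9596 on KNP replicate 2 and at most 113 elsewhere, passed the filter through that array. The count of 14 was thus partly set by the filter. Without KNP replicate 2, 5 were higher and 10 lower, with a median of -0.41. The myosin-binding protein MYBPC1 was at 7.35 ± 2.04 against 4.97 ± 0.31. Muscle glycogen phosphorylase (PYGM) was at 8.64 ± 2.26 against 7.20 ± 0.41 and slow myosin MYH7 at 7.12 ± 1.56 against 6.09 ± 1.21. All 3 were highest on KNP replicate 2. For MYBPC1, 3 KNP arrays and 0 YS arrays exceeded background, and its YS signals were 6.99 to 20.5. Its YS mean was under the filter limit of 6.13, so it passed the filter through its KNP values. The same holds for MYH7, with a YS mean of 6.09 and signal above the no-target level on 2 KNP and 2 YS arrays. The unadjusted p of MYBPC1 thus sets signal against background, and the size of a breed difference cannot be read from it.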
